A study of Mus musculus with 10 samples.

Results

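Fibroblasts and pericytes build the supporting tissue of a tumour, and 43 genes of these cells and of the matrix they lay down were followed here in mouse neuroblastomas with and without mutant ALK. The genes were chosen by name, without the collagens, and with earlier results of these data known. Each was read from 1 array probe, the one of highest mean intensity over the 10 arrays. All 43 had a probe that passed the filter on dim spots, out of 22234 genes tested. Pdgfra passed mainly through the MYCN tumours, since it exceeded background clearly on 1 of 5 ALK/MYCN and 4 of 5 MYCN arrays. The names describe where these genes are best known to be active. No cells were sorted, so the values are those of whole tumours, in which fewer cells of a type and less RNA per cell cannot be told apart.

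Matrix of connective tissue is a mesh of fibres and of glycoproteins that tie the fibres to cells. Fibroblasts secrete most of it, small leucine-rich proteoglycans space the fibres, microfibrils and fibulins scaffold elastin, and lysyl oxidases crosslink the product. Laminins and nidogens form the basement membrane sheet under the vessel wall. Pericytes wrap that wall, respond to platelet-derived growth factor through PDGFRB, and share a contractile gene programme with smooth muscle and activated fibroblasts. Neuroblastoma, a tumour of the sympathetic nervous system, is made of neuroblasts with a variable amount of such stroma.

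Total RNA of 10 untreated tumours was measured, each labelled with Cy3 and hybridised with a Cy5-labelled reference RNA of 11 mouse cell lines. In the ALK/MYCN group, 5 tumours came from mice that were ALK+/- for the F1174L mutant of this receptor tyrosine kinase and MYCN+/-, on a C57BL/6 x 129X1/SvJ background. In the MYCN group, 5 tumours came from MYCN+/- mice on 129X1/SvJ. All animals thus carried MYCN, and the added ALK allele and the mixed strain background cannot be told apart anywhere below. The promoters that drive the transgenes are not given in the sources used here. Every level is the log2 of tumour over reference signal after background correction and loess within the array, and every difference is ALK/MYCN minus MYCN on that scale. Between 53.8% and 58.7% of the probe spots of an array were well above background, and the number of arrays limits the precision. Markers of the labelled tissue were present. Th, the rate-limiting enzyme of catecholamine synthesis, lay between 4.24 and 4.63 in the 10 tumours.

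Promoter sequence is shown for the contractile genes, since a common regulatory element of such genes is known and can be searched for. Serum response factor drives smooth muscle genes through the CArG box, a 10-base element. The 250 bases before the transcription start (RefSeq, GRCm38.p6) are printed for the 4 contractile genes with an entry, 5' to 3' on the gene's own strand, with matches to the CArG box of at most 1 mismatch in capitals. Acta2 lies at chr19:34255374-34255623 on the minus strand, Myl9 at chr2:156775214-156775463, Cnn1 at chr9:22099003-22099252 and Des at chr1:75360042-75360291, the last 3 on the plus strand.
Acta2: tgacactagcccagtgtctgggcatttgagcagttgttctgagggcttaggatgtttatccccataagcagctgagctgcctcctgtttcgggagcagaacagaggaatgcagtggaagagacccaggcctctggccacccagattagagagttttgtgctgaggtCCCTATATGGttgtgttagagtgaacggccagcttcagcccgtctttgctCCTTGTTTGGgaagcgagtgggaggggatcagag
Myl9: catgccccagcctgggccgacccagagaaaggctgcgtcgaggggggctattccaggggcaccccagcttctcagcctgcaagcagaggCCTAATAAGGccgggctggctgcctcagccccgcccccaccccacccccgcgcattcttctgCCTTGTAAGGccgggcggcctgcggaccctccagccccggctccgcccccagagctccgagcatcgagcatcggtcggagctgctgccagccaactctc
Cnn1: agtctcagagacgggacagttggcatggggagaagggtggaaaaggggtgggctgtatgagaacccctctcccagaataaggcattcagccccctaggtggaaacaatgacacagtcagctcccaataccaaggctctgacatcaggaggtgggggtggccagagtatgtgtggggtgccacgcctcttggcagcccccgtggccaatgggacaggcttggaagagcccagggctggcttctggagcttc
Des: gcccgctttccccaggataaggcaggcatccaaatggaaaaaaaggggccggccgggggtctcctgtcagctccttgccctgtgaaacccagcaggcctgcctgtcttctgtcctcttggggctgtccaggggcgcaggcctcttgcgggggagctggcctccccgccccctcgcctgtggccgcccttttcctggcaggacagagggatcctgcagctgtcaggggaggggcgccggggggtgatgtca

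Acta2 holds 2 near matches, CCCTATATGG from -84 and CCTTGTTTGG from -34, counted back from the start. Myl9 holds the exact box CCTAATAAGG from -161 and the near match CCTTGTAAGG from -99. Cnn1 and Des show no such letters in this window. An exact box occurs in 1.47% of 32851 promoters of this length and a match of at most 1 mismatch, which counts the exact ones too, in 18.6%. Of the 26 members with a promoter entry, 2 have an exact box, Lama2 and Myl9, and 10 have a match of at most 1 mismatch. Acta2, Cspg4, Mmp14 and Myl9 have 2 or more such matches, as do 2.96% of all promoters. Here and below, a member counts if any of its entries matches, while the shares are of single promoters. A further 3 elements were searched on both strands. GGAATG, read by TEAD factors, occurs in Acta2, Mfap2, Nid1 and Timp1 and in 12.6% of promoters. CACGTG, the canonical MYC E-box, occurs in Fbln1 and in 6.02%, and the AP-1 element TGANTCA in 0 of the 26 members and in 6.75%. A match is a description of letters, and no binding was measured.

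As a group, the stromal and matrix genes leaned to lower values in ALK/MYCN tumours. The difference was negative for 38 of the 43, with a median of -0.83 and a range from -2.12 (Des) to 0.96 (Postn), while the median over all genes tested was -0.0037 and 50.5% of them were negative. After Benjamini-Hochberg adjustment over all genes in limma, 9 members were lower at 0.05 and 0 were higher. The 9 are Rgs5, Fbln2, Mfap4, Acta2, Fbn1, Sparcl1, Lamb1, Pdgfrb and Lox. They make up 20.9% of the members, where 12.2% of all genes tested were called lower and 14.2% higher. At an unadjusted p under 0.05 there were 17 of the 43 members, Pdgfra among them, all with negative differences. The same held in either direction for 8678 of the 22234 genes tested, a similar share. Every ALK/MYCN tumour lay below every MYCN tumour for 6 members, Rgs5, Fbln2, Lamb1, Acta2, Lox and Des, and such separation held for 8.61% of all genes measured on every array. The opposite separation held for 0 members and 11.3% of genes.

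**Figure D1:**
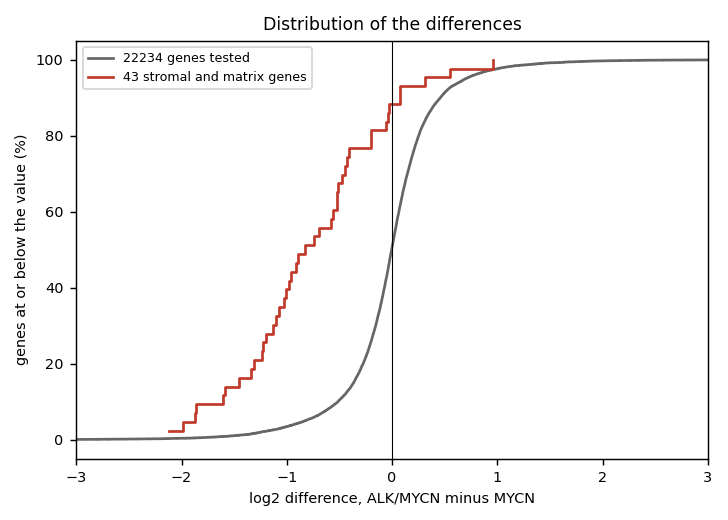
Cumulative share of genes (vertical axis, percent) by log2 difference, ALK/MYCN minus MYCN (horizontal axis), for the 43 stromal and matrix genes (red) and all 22234 genes tested (grey, cut off at 3 on both sides). The red curve lies left of the grey one over most of its range, with a median of -0.83 against -0.0037.

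The count of 9 moved with the tumours and with the slide on which arrays lay. Leaving out ALK/MYCN 1 gave 4 lower members of 43 where 9.19% of all genes were called lower, so that the members' share was then near that of all genes. Leaving out ALK/MYCN 2 or ALK/MYCN 4 gave 5, against 10.2% and 9.33% of all genes. Leaving out MYCN 1 gave 15, Pdgfra among them, against 11.7%. Without MYCN 4 the count was 7, against 9.91%, and the median difference of the 43 moved from -0.83 to -0.50. With slide as a block 5 passed, namely Acta2, Fbln2, Lamb1, Mfap4 and Rgs5, where 8.47% of all genes were called lower. Centring on spike-in spots in place of loess shifted the all-gene median to 0.22 and left 33 negative members with a median of -0.57, of which 6 were called lower against 3.70% of all genes; median centring gave 35 negative members and 7 calls against 6.07%.

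The spread among MYCN tumours was wide for these genes. The SD over 5 tumours was larger in the MYCN group for 35 of the 43 members (81.4%, against 54.0% of all genes). The median SD of the members was 0.83 in MYCN and 0.48 in ALK/MYCN tumours, against 0.17 and 0.16 over all genes. MYCN 4 was the highest of the 10 tumours for 30 members and MYCN 2 for 8, while these tumours were highest for 12.2% and 12.5% of all genes. At the other end, ALK/MYCN 1 was the lowest of the 10 for 17 members and MYCN 1 for 15, against 13.2% and 16.3% of all genes. MYCN 1 did not exceed the highest ALK/MYCN tumour for 35 members and MYCN 5 for 32, counts near the all-gene shares of 75.1% and 74.4%. For MYCN 4 this held for 6 members, where the share of all genes was 71.0%. The mean over the 43 genes, each centred on its own mean, was 0.98, 0.51 and 1.31 in MYCN 2, 3 and 4 but -0.71 and -0.16 in MYCN 1 and MYCN 5. In ALK/MYCN tumours 1 to 5 it was -0.93, -0.50, 0.08, -0.46 and -0.12. Both low MYCN tumours thus sat inside the ALK/MYCN range for this mean.

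**Figure D2:**
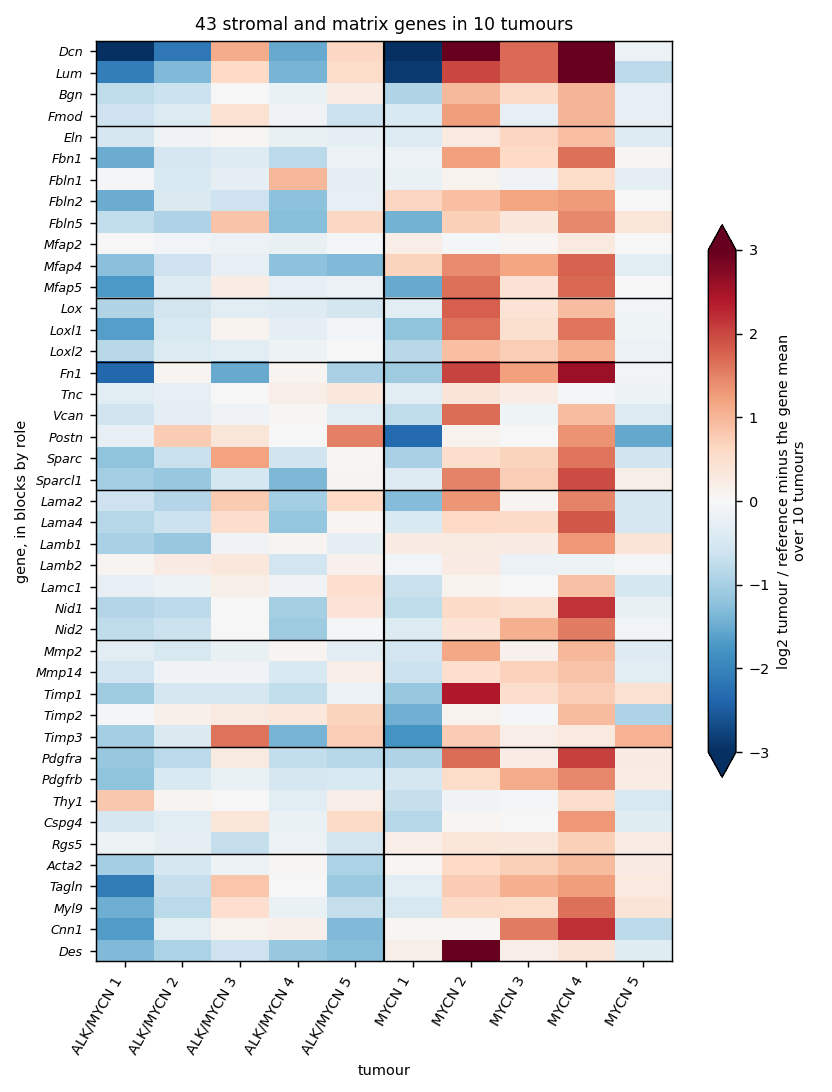
Log2 ratio of tumour over reference minus the gene's mean over the 10 tumours (colour, saturated beyond 3 in either direction), for the 43 genes in blocks by role (rows) and the 10 tumours (columns, ALK/MYCN left of the line). MYCN 2, 3 and 4 are red for most genes, and ALK/MYCN 1 and MYCN 1 are blue for most.

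Small leucine-rich proteoglycans bind collagen fibrils and set their spacing and width. All 4 had negative differences, from -1.99 (decorin, Dcn) to -0.53 (fibromodulin, Fmod), and 0 of 4 passed. Biglycan, Bgn (probe at chrX:70738554-70738613, mm9), read -3.26, -3.14, -2.50, -2.69 and -2.27 in ALK/MYCN tumours 1 to 5, and -3.40, -1.53, -1.91, -1.47 and -2.73 in MYCN tumours 1 to 5. The difference was -0.56 ± 0.37 (SE, limma adjusted p = 0.295). MYCN 1 was the lowest of all 10 and MYCN 5 also lay within the ALK/MYCN range.

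Decorin, the classic fibroblast proteoglycan (chr10:96980233-96980292, mm9), spanned the widest range of the 4. It read -5.52, -4.60, -1.35, -3.97 and -1.86 in ALK/MYCN tumours 1 to 5, and -6.13, 0.73, -0.76, 1.43 and -2.63 in MYCN tumours 1 to 5. MYCN 1 was lowest and MYCN 4 highest, so 1 genotype held both ends. The difference of -1.99 ± 1.40 has a 95% interval from -5.10 to 1.13 (limma adjusted p = 0.326). Lumican, Lum, differed by -1.46 with the same 2 tumours at its extremes, -2.13 in MYCN 1 and 4.33 in MYCN 4.

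Elastic fibres consist of an elastin core on a scaffold of fibrillin microfibrils, with fibulins linking the parts. All 8 genes of this set had negative differences, 3 of them passed, and the median was -0.75. Fibulin 2, Fbln2 (chr6:91222118-91222177, mm9), read -4.01, -2.97, -3.14, -3.75 and -2.78 in ALK/MYCN tumours 1 to 5, and -1.89, -1.62, -1.35, -1.25 and -2.53 in MYCN tumours 1 to 5. The groups did not overlap, with MYCN 5 the lowest of its group and nearest to ALK/MYCN 5. Fbln2 fell by 1.60 ± 0.30 (SE, limma adjusted p = 0.00435), a level 3.04-fold higher in MYCN tumours.

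Mfap4, a microfibril-associated glycoprotein of vessel walls (chr11:61302147-61302206, mm9), read 0.47, 1.09, 1.47, 0.48 and 0.40 in ALK/MYCN tumours 1 to 5, and 2.40, 3.13, 2.89, 3.50 and 1.37 in MYCN tumours 1 to 5. MYCN 5 was the only MYCN tumour inside the ALK/MYCN range. The difference was -1.88 ± 0.38 (limma adjusted p = 0.00663), and it was negative on each of the 3 slides, at -1.30, -2.69 and -2.07.

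Fibrillin 1, Fbn1, the main microfibril protein (chr2:125126727-125126786, mm9), read -2.64, -1.65, -1.53, -1.95 and -1.32 in ALK/MYCN tumours 1 to 5, and -1.33, 0.08, -0.54, 0.50 and -1.09 in MYCN tumours 1 to 5. MYCN 1 touched the top of the ALK/MYCN range and the other 4 MYCN tumours lay above it. Fbn1 fell by 1.34 ± 0.37 (limma adjusted p = 0.0248). The call was lost on leaving out ALK/MYCN 1 (-1.14, adjusted p = 0.053), ALK/MYCN 4 (-1.31, adjusted p = 0.0521) or MYCN 2 (-1.20, adjusted p = 0.0537), and when slide was a block (-1.33, adjusted p = 0.0694).

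The other 5 genes of the elastic fibre did not pass. Mfap5, which binds fibrillin, differed by -0.92, the elastin-binding Fbln5 by -0.58, elastin itself (Eln) by -0.41, Mfap2 by -0.20 and Fbln1 by -0.03. Mfap2 varied little, with SDs of 0.09 and 0.15, and its unadjusted p was 0.0348 (adjusted p = 0.0985). Another kept Mfap2 probe differed by -0.33 (adjusted p = 0.0298). The gene passed as lower in 4 of 27 alternatives (scale and quantile normalization, Cy3 alone and the mean over probes), and its sign turned to 0.078 with spike-in centring. Fbln1 was at 0.12 after median centring and at 0.24 after spike-in centring. The reference channel was well above background on 2 of 10 arrays for Eln, so that its ratio rests on a dim reference.

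Lysyl oxidases oxidise lysines of collagen and elastin so that the fibres crosslink. The 3 members had differences from -1.10 to -0.69. Lox (chr18:52676912-52676971, mm9) read -5.19, -4.84, -4.62, -4.67 and -4.83 in ALK/MYCN tumours 1 to 5, and -4.59, -2.48, -3.86, -3.36 and -4.35 in MYCN tumours 1 to 5. MYCN 1 lay just above ALK/MYCN 3, and MYCN 2 stood well above the rest. The fall of 1.10 ± 0.35 was close to the threshold (limma adjusted p = 0.0423).

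Lox was well above background on 3 of 5 ALK/MYCN arrays, and its call held in 9 of 27 alternatives. It was lost when any one ALK/MYCN tumour, MYCN 3 or MYCN 4 was left out, with differences of -1.01 to -1.15 and adjusted p of 0.0576 to 0.0893. Another Lox probe, above background on all arrays, differed by -0.58 (adjusted p = 0.139). Loxl2 (chr14:70095254-70095313, mm9) read -2.67, -2.25, -2.16, -1.97 and -1.82 in ALK/MYCN tumours 1 to 5, and -2.66, -0.91, -1.09, -0.73 and -2.01 in MYCN tumours 1 to 5. MYCN 2, 3 and 4 lay above every ALK/MYCN tumour and MYCN 1 and 5 among them (difference -0.69 ± 0.36, limma adjusted p = 0.179). Loxl1, which crosslinks elastin, differed by -0.96.

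Adhesive and matricellular glycoproteins connect cells to the matrix or modulate that contact. Of 6 genes, 5 had negative differences and 1 passed. Sparcl1, a counter-adhesive relative of SPARC (chr5:104508149-104508208, mm9), read 2.59, 2.48, 3.10, 2.28 and 3.71 in ALK/MYCN tumours 1 to 5, and 3.23, 5.10, 4.36, 5.57 and 3.80 in MYCN tumours 1 to 5. All 10 tumours exceeded the reference, and ALK/MYCN 5 was the only tumour of its group above MYCN 1. Sparcl1 fell by 1.58 ± 0.44 (limma adjusted p = 0.026), 2.99-fold. The call was lost without ALK/MYCN 1, 2 or 4 or MYCN 2, with differences of -1.52, -1.49, -1.44 and -1.41 and adjusted p of 0.055 to 0.0595.

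Fibronectin, Fn1 (chr1:71632116-71632175, mm9), the adhesive protein on which cells assemble matrix, read -6.78, -4.35, -5.94, -4.35 and -5.40 in ALK/MYCN tumours 1 to 5, and -5.50, -2.41, -3.21, -1.87 and -4.51 in MYCN tumours 1 to 5. MYCN 1 and 5 lay inside the ALK/MYCN range and the other 3 above it. The difference of -1.86 ± 0.73 did not pass (limma adjusted p = 0.0848). With single tumours left out it ran from -2.36 (without MYCN 1, adjusted p = 0.0292) to -1.45. It passed in that 1 fit only, and the largest adjusted p was 0.174.

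Periostin, Postn, a matricellular protein of activated fibroblasts, had the only positive difference of this set, 0.96 ± 0.64 (limma adjusted p = 0.295). Its levels ran from 1.59 to 3.35 in ALK/MYCN and from -0.49 to 3.17 in MYCN tumours, with MYCN 1 and 5 lowest. Sparc differed by -0.48 and versican, Vcan, by -0.52. Tenascin C, Tnc, was well above background on 3 and 2 of 5 arrays and differed by -0.04, with a sign that depended on the processing.

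Laminins are trimers of an alpha, a beta and a gamma chain, and nidogens link them to the rest of the basement membrane. Of 7 genes, 5 had negative differences and 1 passed. The beta chain gene Lamb1 (chr12:32014411-32014470, mm9) read -2.32, -2.50, -1.47, -1.27 and -1.66 in ALK/MYCN tumours 1 to 5, and -1.11, -1.09, -1.11, -0.06 and -0.96 in MYCN tumours 1 to 5. The groups did not overlap, and the MYCN tumours other than MYCN 4 lay close together, between -1.11 and -0.96. Lamb1 fell by 0.98 ± 0.28 (limma adjusted p = 0.0299). The call was lost without ALK/MYCN 1 (-0.86, adjusted p = 0.0671), ALK/MYCN 2 (-0.81, adjusted p = 0.0593) or ALK/MYCN 5 (-1.02, adjusted p = 0.0513).

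Nid2, nidogen 2 (chr14:20630490-20630549, mm9), read -2.73, -2.61, -1.97, -3.03 and -1.99 in ALK/MYCN tumours 1 to 5, and -2.38, -1.56, -0.90, -0.41 and -2.06 in MYCN tumours 1 to 5. MYCN 2, 3 and 4 lay above the ALK/MYCN range and the other two within it. The difference was -1.01 ± 0.37 (limma adjusted p = 0.0725). With single tumours left out it ran from -1.24 (without MYCN 1, adjusted p = 0.0338) to -0.74. It passed in that 1 fit only, and the largest adjusted p was 0.152.

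The remaining genes of the basement membrane did not pass. Lama4, the alpha chain of vessels, differed by -0.83, Lama2 by -0.45 and Nid1 by -0.89. The beta chain Lamb2 and the gamma chain Lamc1 differed by 0.08 and 0.07, with 95% intervals from -0.29 to 0.45 and from -0.54 to 0.69. Lamb2 was the only member that was positive on all 3 slides, at 0.34, 0.10 and 0.11.

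Matrix proteases cut this material, and the tissue inhibitors of metalloproteinases (TIMPs) block them. Of 5 genes 4 had negative differences and 0 passed. Timp1 (chrX:20451802-20451861, mm9) read -3.78, -3.23, -3.22, -3.47 and -2.89 in ALK/MYCN tumours 1 to 5, and -3.87, -0.31, -2.19, -1.99 and -2.26 in MYCN tumours 1 to 5. MYCN 1 was the lowest of all 10, and the other 4 MYCN tumours exceeded every ALK/MYCN tumour. The difference of -1.19 ± 0.52 did not pass (limma adjusted p = 0.117). With single tumours left out it ran from -1.63 (without MYCN 1, adjusted p = 0.0179) to -0.74. It passed in that 1 fit only, and the largest adjusted p was 0.208.

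Mmp2, a gelatinase (chr8:95376840-95376899, mm9), read -2.30, -2.44, -2.18, -1.88 and -2.31 in ALK/MYCN tumours 1 to 5, and -2.54, -0.80, -1.83, -0.96 and -2.35 in MYCN tumours 1 to 5. MYCN 2, 3 and 4 lay above the ALK/MYCN range, MYCN 1 below it (difference -0.52 ± 0.33, limma adjusted p = 0.268). Mmp14, the membrane-bound activator of MMP2, differed by -0.43 and Timp3, a matrix-bound inhibitor, by -0.20 (0.054 with spike-in centring).

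Timp2 had 2 probes, and they disagreed. The probe used here (chr11:118163146-118163205, mm9) gave 0.55 ± 0.38, from a mean of -2.14 ± 0.25 for ALK/MYCN against -2.69 ± 0.93 for MYCN (SD, n = 5 each). The other spans chr11:118171964-118178741 and therefore crosses an intron. Its sequence is shown because the direction of the gene rests on which probe is read.
Timp2 intron-crossing probe: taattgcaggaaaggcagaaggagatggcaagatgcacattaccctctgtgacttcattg

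On that probe Timp2 read -2.73, -2.64, -2.44, -2.53 and -2.18 in ALK/MYCN tumours 1 to 5, and -2.49, -1.29, -1.62, -1.02 and -2.21 in MYCN tumours 1 to 5. Its difference was -0.78 ± 0.26 (limma adjusted p = 0.053), and the mean over both probes gave -0.12. Among the 10 members with more than 1 kept probe, the other 9 had the same sign on every probe.

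Among surface receptors, PDGFRA is used as a marker of fibroblasts and PDGFRB as one of pericytes, but neither is taken here to tell these cells apart. Of 5 surface and signalling genes, 4 had negative differences and 2 passed. Rgs5, a regulator of G protein signalling and a marker of pericytes (chr1:171623021-171623080, mm9), read 3.72, 3.61, 3.17, 3.70 and 3.32 in ALK/MYCN tumours 1 to 5, and 4.07, 4.25, 4.22, 4.59 and 4.10 in MYCN tumours 1 to 5. The groups did not overlap, and here MYCN 1 stood with the rest of its group. Rgs5 fell by 0.74 ± 0.14 (limma adjusted p = 0.0043), the smallest p among the 43, and its differences within the 3 slides were -0.47, -1.06 and -0.86. It was called in 25 of 27 alternatives, the exceptions being the scanner-processed signals and the deposited log2 table, where it was -0.32 (adjusted p = 0.24). The reference channel was well above background on 6 of 10 arrays.

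Pdgfrb (chr18:61244606-61244665, mm9) read -2.10, -1.34, -1.10, -1.41 and -1.34 in ALK/MYCN tumours 1 to 5, and -1.43, -0.34, 0.23, 0.56 and -0.66 in MYCN tumours 1 to 5. MYCN 1 fell among the ALK/MYCN tumours and the other 4 above them. The difference was -1.13 ± 0.35 (limma adjusted p = 0.0373). It held in 15 of 27 alternatives and was lost without ALK/MYCN 1, 2, 4 or 5 and without MYCN 2, 3 or 4, with differences of -0.91 to -1.16 and adjusted p of 0.0592 to 0.0816. On slide 1, with 1 tumour of each group, it was 0.09.

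Pdgfra differed by -1.31 ± 0.52 without passing (limma adjusted p = 0.0914). It was well above background on 1 of 5 ALK/MYCN and 4 of 5 MYCN arrays. Its place among the genes tested thus rests mainly on the group where it is higher, and its difference is no support for a lower level. With single tumours left out it ran from -1.70 (without MYCN 1, adjusted p = 0.0245) to -0.96, and passed in that 1 fit only. Cspg4, the pericyte proteoglycan NG2, differed by -0.06, with a 95% interval from -0.87 to 0.76, and by 0.22 with spike-in centring. Thy1, a surface protein of fibroblasts and also of neurons, differed by 0.32 (adjusted p = 0.385). Pdgfrb, Rgs5 and Cspg4 therefore had unlike differences, from -1.13 for Pdgfrb to -0.06 for Cspg4, and the contrast between them was not tested.

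Contractile genes had the most negative median of the 8 role groups, -1.22, with differences from -2.12 to -1.03. Of the 5, 1 passed, Acta2. All 5 differences were under -1, as were those of 17 of the 43 members, Pdgfra among them, and of 760 of the 22234 genes tested. The members also varied more between tumours than most genes. Their median SDs were 0.48 in ALK/MYCN and 0.83 in MYCN tumours, against 0.16 and 0.17 over all genes. A mark on the raw difference is therefore reached more easily by them. Acta2, smooth muscle actin (chr19:34316060-34316119, mm9), read -2.94, -2.40, -2.06, -1.87 and -2.85 in ALK/MYCN tumours 1 to 5, and -1.86, -1.31, -1.19, -0.95 and -1.66 in MYCN tumours 1 to 5. MYCN 1 and ALK/MYCN 4 all but touched, yet the groups did not overlap. Acta2 fell by 1.03 ± 0.24 (limma adjusted p = 0.0125), 2.04-fold, and was called in all 27 alternatives, as were Fbln2 and Mfap4.

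Myl9, the myosin light chain whose promoter holds the exact box printed above (probe at chr2:156607301-156607360, mm9), read -3.43, -2.77, -1.47, -2.16 and -2.68 in ALK/MYCN tumours 1 to 5, and -2.44, -1.39, -1.41, -0.32 and -1.58 in MYCN tumours 1 to 5. The groups overlapped, since ALK/MYCN 3 lay above MYCN 1 and MYCN 5, and the difference of -1.07 ± 0.42 did not pass (limma adjusted p = 0.0854). It passed when ALK/MYCN 3 was left out (-1.33, adjusted p = 0.0376) or MYCN 1 (-1.33, adjusted p = 0.0401). Other single tumours gave no pass, with an adjusted p of up to 0.175. Tagln, an actin-binding protein of smooth muscle, differed by -1.22, and calponin, Cnn1, by -1.24. With single tumours left out Tagln ran from -1.58 (without ALK/MYCN 3, adjusted p = 0.0304) to -0.85. Tagln passed in that 1 fit only, and its largest adjusted p was 0.197. Cnn1 and Des, whose printed windows hold no match to the box, stood at -1.24 and -2.12, beside -1.03 and -1.07 for Acta2 and Myl9. Without MYCN 2 the Des difference was -1.17. The part of the box in these differences was not tested.

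Des, encoding desmin, the intermediate filament of muscle and of pericytes (chr1:75363404-75363629, mm9), read -2.29, -1.91, -1.57, -2.08 and -2.24 in ALK/MYCN tumours 1 to 5, and -0.77, 3.93, -0.75, -0.56 and -1.33 in MYCN tumours 1 to 5. Every MYCN tumour was above every ALK/MYCN tumour, and MYCN 2 stood far above all others. With all tumours the difference was -2.12 ± 0.87 (limma adjusted p = 0.097), and without MYCN 2 it was -1.17 and passed (adjusted p = 0.00409). Leaving out any other single tumour gave no pass, with an adjusted p of up to 0.166. The 6 measured skeletal muscle markers had a centred mean of 4.24 in MYCN 2, 2.19 in MYCN 1 and at most 0.06 in the other 8 tumours, and their part in the Des value was not tested.

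**Figure D3:**
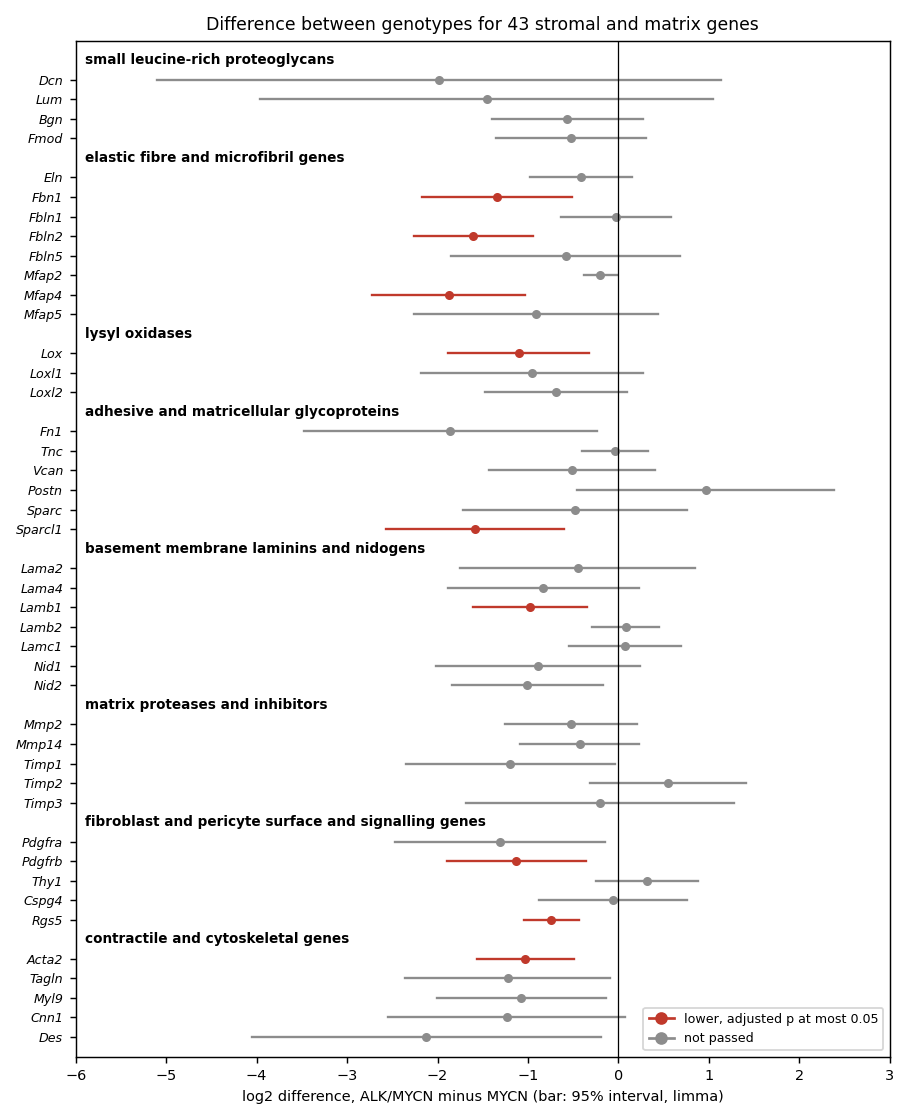
Log2 difference, ALK/MYCN minus MYCN (points, horizontal axis), with its 95% limma interval (bars) for the 43 genes in blocks by role; red marks genes lower at an adjusted p of at most 0.05. The 9 red genes fall in 6 of the 8 blocks, and 5 genes lie right of 0.

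**Figure D4:**
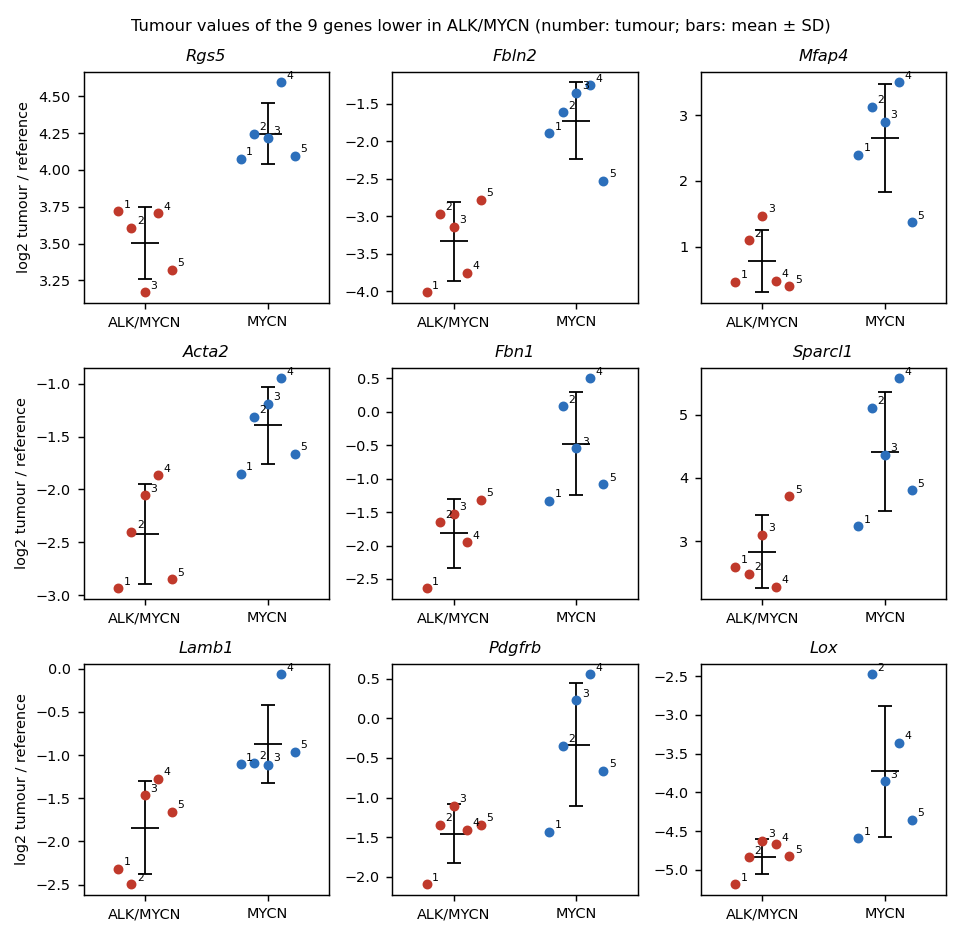
Log2 ratio of tumour over reference (vertical axis, its own scale in each panel) in each of the 10 tumours for the 9 genes called lower; numbers give the tumour, long lines the mean and bars the SD of 5 tumours. MYCN 4 is the highest tumour in 8 of the 9 panels and MYCN 2 in that of Lox.

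Genes that feed into these roles were read from other lists. For the count of each list below, the share of all genes tested was 12.2% called lower and 14.2% higher. Platelet-derived growth factors recruit pericytes and fibroblasts, and 2 of 3 measured ligand genes fell. Pdgfc fell by 0.92 ± 0.21 (limma adjusted p = 0.0121), from -2.17 ± 0.47 in MYCN to -3.09 ± 0.23 in ALK/MYCN tumours (SD, n = 5 each), and the groups did not overlap. Pdgfb, the ligand of PDGFRB that endothelium releases, fell by 0.83 ± 0.26 (adjusted p = 0.0387). Pdgfa differed by 0.26.

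TGF-beta is the main inducer of matrix synthesis in fibroblasts. Of its 10 ligand, receptor and latent binding protein genes, 1 fell and 0 rose, with a median difference of -0.29. That is 10% called lower, against 12.2% of all genes. Tgfb1 fell by 0.65 ± 0.21 (limma adjusted p = 0.0451), Tgfb2 differed by 0.92 (adjusted p = 0.0557), and the receptor gene Tgfbr2 by -1.28 (adjusted p = 0.0716). Among 8 response genes, Smad7, a feedback inhibitor, fell by 0.49 and Ctgf, a matricellular growth factor, by 1.12 (adjusted p = 0.0113 and 0.0447). Tgfbi, at -1.48, and Pmepa1, at 0.47, did not pass.

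A list outside the 43 was read beside Acta2. It holds genes of smooth muscle and of the actin cytoskeleton together with serum response factor and its cofactors. Of 12 measured, 3 fell and 0 rose, with a median of -0.59. Cald1, the actin regulator caldesmon, averaged -2.25 ± 0.18 with mutant ALK against -1.40 ± 0.09 without (SD, n = 5 each), and fell by 0.85 ± 0.09 (limma adjusted p = 0.000515). Myh11, smooth muscle myosin, fell by 1.04 ± 0.20 (adjusted p = 0.00565), also without overlap, and Actg2, enteric smooth muscle actin, by 1.78 ± 0.48 (adjusted p = 0.0217).

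Of 21 other matrix glycoproteins and proteoglycans measured, 4 fell and 1 rose, with a median of -0.41. Lamb3, a laminin chain of epithelial basement membrane, fell by 0.57 and Thbs1, thrombospondin 1, by 1.27 (limma adjusted p = 0.0045 and 0.00794), both without overlap, and Emilin1 fell by 0.36. The one that rose was Agrn, the basement membrane proteoglycan agrin that neurons also make, with a mean of 1.36 ± 0.28 against 0.25 ± 0.14 for MYCN (SD, n = 5 each), up by 1.11 ± 0.13 (adjusted p = 0.000626). Of 11 other proteases and inhibitors, Adamts9 fell by 1.31 and Mmp15 rose by 0.39 (adjusted p = 0.00366 and 0.0113). Of 8 other crosslinking genes Tgm2, a transglutaminase, fell by 1.43 (adjusted p = 0.00646), and of 12 integrin subunits Itgb3 fell by 1.12 (adjusted p = 0.0225), with integrin and crosslinking medians of -0.02 and -0.26. Lower calls made up 9.09% of the proteases and inhibitors, 12.5% of the crosslinking genes and 8.33% of the integrins, near or below the 12.2% of all genes.

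Markers of other cells moved as well. Of 8 endothelial markers 6 fell, with a median difference of -0.87, among them Cdh5 by 1.68, Esam by 1.36, Cldn5 by 2.17 and Tie1 by 0.76 (limma adjusted p = 0.00297, 0.00489, 0.00611 and 0.0118). Their centred mean ran from -0.84 to 0.10 in ALK/MYCN and from 0.08 to 1.03 in MYCN tumours. Of 8 macrophage markers 6 fell, with a median of -0.80, among them C1qc, C1qb, Cd68 and Csf1r, and their mean ran from -0.69 to -0.12 and from -0.30 to 0.90. Of 3 measured lymphocyte markers 0 passed, and Cd3d and Ms4a1 did not pass the filter on dim spots. The part of endothelium and macrophages in the stromal differences was not tested.

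Tissue next to a tumour can enter a sample. Of 6 skeletal muscle markers Myh4 and Myh8 fell, by 2.60 and 2.61 (limma adjusted p = 0.00717 and 0.00897). All 5 adipocyte markers had negative differences, with a median of -1.90. Of these 1 passed, Fabp4, at -4.31 (adjusted p = 0.0252), the most negative difference of all genes tested. The centred mean of the 5 was highest in MYCN 4 (4.05) and ALK/MYCN 3 (2.61). Kidney markers stood out in MYCN 5 (3.04) and adrenal cortex markers in ALK/MYCN 3 (4.42), with 0 calls in either list. Without ALK/MYCN 3, MYCN 2 and MYCN 5 together, 5 members were lower (Acta2, Des, Fbln2, Mfap4 and Rgs5), against 6.93% of all genes, and the median of the 43 was -0.85. That fit keeps MYCN 1, with a skeletal muscle mean of 2.19, and MYCN 4, the tumour with the highest adipocyte mean. When MYCN 4 alone was left out, the median of the 43 was -0.50. The part of these tissues in the differences was not tested. Of 4 measured Schwann cell markers 2 rose, among them Sox10 by 1.16 (adjusted p = 0.00114). The other 2 did not pass, 1 of them with a negative difference, and the 4 ran from -0.11 to 1.24. Of 7 neuroblast markers Th and Ddc rose, by 0.23 and 0.27 (adjusted p = 0.0139 and 0.0409).

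**Figure D5:**
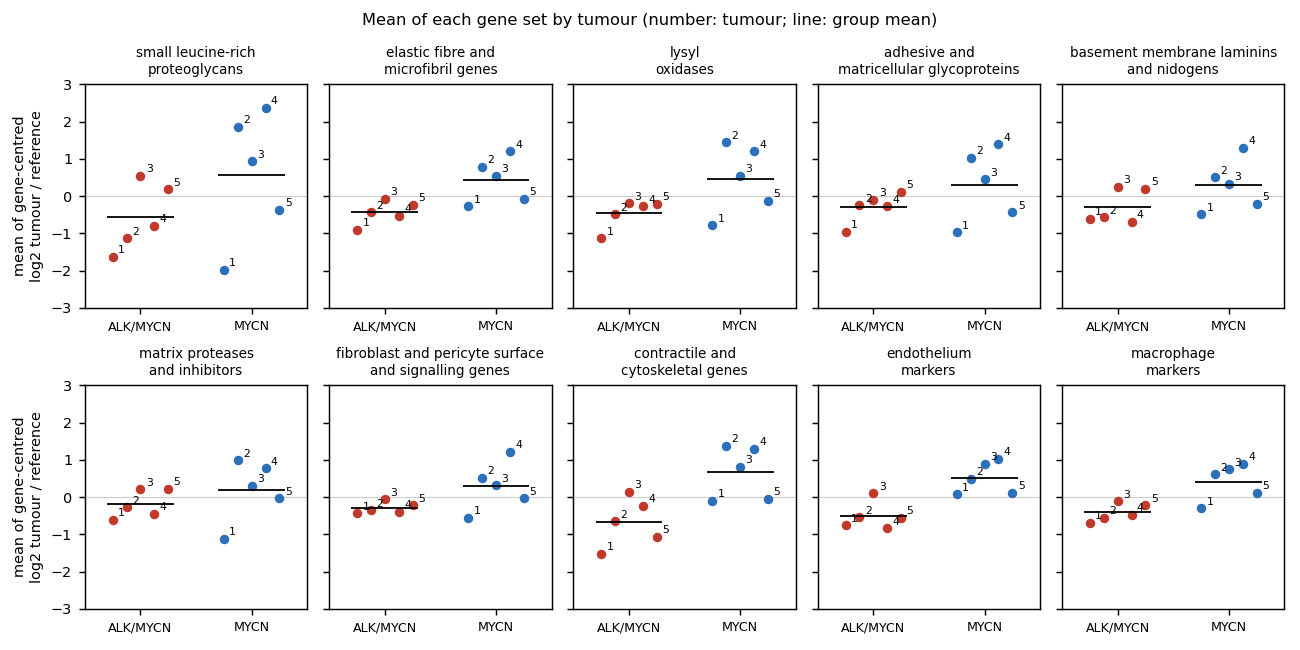
Mean of gene-centred log2 ratios (vertical axis) in each tumour for the 8 role groups and for endothelial and macrophage markers; numbers give the tumour and lines the group mean. In every panel MYCN 2, 3 and 4 lie above all ALK/MYCN tumours and MYCN 1 is the lowest MYCN tumour; endothelial means run from 0.08 in MYCN 1 to 1.03 in MYCN 4.

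Arrays of both groups lay on each of 3 slides, so the differences could be read within slides. On slide 1, with ALK/MYCN 2 and MYCN 1, 17 of 43 members were negative and the median was 0.10. On slide 2, with ALK/MYCN 1, 3 and 4 and MYCN 4, 42 were negative with a median of -1.53. Slide 3, with ALK/MYCN 5 and MYCN 2, 3 and 5, had 32 negative members and a median of -0.60. Of all genes measured on every array, 46.0%, 50.7% and 51.0% were negative on slides 1, 2 and 3. The lean to lower values was thus absent on the slide whose MYCN tumour was MYCN 1, and tumour and slide cannot be told apart there. Negative on all 3 slides were 16 members, among them 8 of the 9 called, the exception being Pdgfrb. The 9 were called from these same arrays, so their signs within slides are no separate evidence.

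Set against the reference of cell lines, 6 members, Eln, Mfap2, Mfap4, Sparcl1, Lama4 and Rgs5, were above it in all 10 tumours, and 22 were below it in all 10, including Lox, Fn1, Tagln, Acta2 and Timp1. The other 15 lay on both sides. The number of members above the reference ran from 8 to 12 in ALK/MYCN and from 7 to 19 in MYCN tumours, the most in MYCN 4.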

How the data were processed

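RNA of 10 tumours, 5 per genotype, was measured on 2-colour Agilent arrays. Spot intensities, deposited by the authors, come from Feature Extraction 10.7.3.1 and give probe positions on mm9, per the file headers. Its log10 ratios, deposited in the same files, entered no test. A deposited table of log2 ratios equals log2 of processed Cy3 over Cy5 within 0.000501, with array medians from -0.186 to -0.035, so scale, centring and direction are known. No source used here says what the authors did next.

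From the intensities, mean signals were corrected with normexp (offset 50) and normalised within arrays by loess in limma 3.58.1 (R 4.3.3), with control spots at weight 0, and turned to tumour over reference. Between 177 and 345 outlier spots per array were set to missing, and 0 probe spots were saturated. Of 55681 probes, 30857 were kept, those clearly over background in Cy3 on 5 or more arrays. A gene took its probe of highest mean intensity. Names were updated through RefSeq (14153 by accession, 840 by symbol, 159 by synonym), and 7082 kept the array's name. Differences were tested with lmFit and eBayes, in a two-sided test, at 0.05 after Benjamini-Hochberg adjustment for 22234 genes. The procedure was tested on simulated data.

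Every member may be named. In each role group the called members, or the 2 with the smallest p where fewer passed, are given by tumour, and of each other list up to 4 genes with the smallest p. Members and lists were chosen with earlier results of these data known. The labels call each array a biological replicate. Replicate numbers did not pair tumours: deviations of same-numbered tumours correlated at 0.34, -0.02, -0.08, -0.09 and -0.06. A few genes of the marker lists are not reported here.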

Additional observations from a re-analysis of the deposited data

Results flagged for a closer look

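In 4 of 86 groups of 5 tumours, 1 tumour lay far from the other 4 by Dixon's criterion, where chance alone flags about 1 in 20, or 5%. Des was at 3.93 in MYCN 2, and the next MYCN tumour was at -0.56. Lamb1 was at -0.065 in MYCN 4, against -0.96 in the next. Fbln1, a fibulin of vessel walls, was at 1.32 in ALK/MYCN 4, and the others of that group lay at or below 0.26. Lamb2 was at -0.90 in ALK/MYCN 4, below the others, of which the lowest was at -0.23.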

How the results depend on the processing

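Of 1156 recomputed member differences under 27 alternatives, 1045 kept their sign and side of the threshold, 50 lost it, 22 gained it and 39 changed sign, 0 of these for a called member. The count of lower members was 5 with slide as a block, 5 without ALK/MYCN 3, MYCN 2 and MYCN 5, and 4 to 15 when each tumour was left out, the 4 (without ALK/MYCN 1) beside 9.19% and the 15 (without MYCN 1) beside 11.7% of all genes. The median difference of all 43 members then ran from -1.04 to -0.50. Quantile normalization between arrays gave 1 higher member, Timp2. With the replicate number as a block, a pairing the data do not bear out, 12 members were lower. Over all genes, 1349 were lower and 4451 higher with median centring, and 823 and 8059 with spike-in centring, against 2722 and 3166.

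Sign changes fell on 7 uncalled members. The difference of Tnc was 0.51 in the scanner-processed signals and the deposited table, 0.0064 with offset 16, 0.016 with no background correction, 0.064 with scale and 0.19 with quantile normalization, 0.094 with median and 0.22 with spike-in centring, 0.080 in Cy3 alone, 0.072 with slide as a block and 0.025 without the 3 tumours. The difference of Cspg4 was 0.0033 with quantile normalization, 0.094 with median and 0.22 with spike-in centring. The difference of Fbln1 was 0.12 with median and 0.24 with spike-in centring, when the difference of Mfap2 was 0.078 and the difference of Timp3 was 0.054, the latter 0.15 with slide as a block. The difference of Timp2 was -0.12 as a mean over probes and the difference of Lamc1 was -0.079 without the 3 tumours. With single tumours left out, Tnc ran from -0.12 to 0.054, Timp3 from -0.68 to 0.12, Cspg4 from -0.27 to 0.26, Fbln1 from -0.28 to 0.11 and Lamc1 from -0.084 to 0.31. The causes were not tested. Signal over background limits Pdgfra, Lox and Tnc.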
